A study of Homo sapiens with 60 samples.

Results

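The EGFR family ligands are the secreted or membrane-anchored growth factors that bind EGFR and its relatives ERBB3 and ERBB4. The 8 genes described here, AREG, EREG, TGFA, HBEGF, BTC, EPGN, EGF and NRG1, were taken by name from the 19712 genes of the deposited tables, and all 8 were found. Their mRNA was followed in PC9, HCC827, H1975 and HCC2935, established EGFR-mutant non-small cell lung cancer (NSCLC) lines grown as monolayers. Each line was sequenced in 5 arms with 3 replicates each, which gives 60 libraries in 20 groups. Parental cells kept for 21 days without drug were given DMSO, the solvent control, for 24 h, or 500 nM osimertinib, an irreversible EGFR inhibitor, for 24 h (acute). Drug-tolerant persisters (DTPs) had 500 nM osimertinib for 21 days. Short washout followed this with 24 h without drug, and long washout with 7 days in PC9, 4 days in HCC827, 3 days in H1975 and 10 days in HCC2935, a time set per line by when growth resumed. The length of the long washout and the cell line can therefore not be told apart.

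Ligands of this family are made as transmembrane precursors and released from the cell surface by ADAM metalloproteases. EGF, TGFA, AREG and EPGN bind EGFR, whereas HBEGF, BTC and EREG bind EGFR and ERBB4, and NRG1 binds ERBB3 and ERBB4. Transcription of several of them is known to be raised by EGFR signalling through ERK, the kinase at the end of the RAS pathway, so that a cell can feed its own receptor. The comparisons ask how the ligand mRNAs stood after acute EGFR inhibition, in cells that outlived it, and once the drug was withdrawn. Levels are given in TPM (transcript abundance scaled to a fixed library total), which is corrected for gene length and allows ligands to be set side by side. Changes are log2 fold changes from edgeR's quasi-likelihood test on the estimated counts, with their standard error (SE). A change was called at an adjusted p (Benjamini-Hochberg, over all genes tested) under 0.05.

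The libraries held 17.7 to 49.1 M counts (median 30.1 M), with medians of 40.2 M in PC9, 42.9 M in H1975, 19.7 M in HCC827 and 21.6 M in HCC2935. All 6 epithelial markers exceeded 1 TPM in each line. Under acute drug 5 were called higher and 1 lower in PC9, 3 and 1 in H1975, and 2 and 3 were called lower in HCC827 and HCC2935, with none higher there. In DTPs 3 were called lower and 2 higher in PC9, and 5, 4 and 4 lower and 0 higher in HCC827, H1975 and HCC2935. Of all genes tested in PC9, HCC827, H1975 and HCC2935, 34.5%, 18.7%, 27.8% and 24.9% were called higher under acute drug. The shares called lower there were 31.7%, 20.2%, 23.8% and 22.2%, and in DTPs 33.5%, 20.4%, 25.7% and 25.8%. Of the defining markers of other cell types, 0 of 5 leukocyte markers exceeded 1 TPM over all arms in PC9, HCC827 and HCC2935, and 3 of 5 in H1975. Fibroblast markers, led by the collagen COL1A1, were called higher in DTPs than under DMSO for 3 of 4 genes tested in PC9, 5 of 6 in HCC827, 4 of 6 in H1975 and 3 of 5 in HCC2935, with the defining marker DCN under 1 TPM in each line. Beside them, 35.7%, 23%, 26% and 27% of all genes tested were called higher. Their sum ran from 6.17 to 60.3 TPM under DMSO and from 13.9 to 117 TPM in DTPs, and 0 were called lower. Of 4 endothelial markers, 1, 2, 3 and 2 were called higher under acute drug in PC9, HCC827, H1975 and HCC2935 and 1, 1, 2 and 0 in DTPs, with 1 lower at both times in PC9. The defining marker VWF was under 1 TPM in each line, and their sum ran from 0.322 to 1.64 TPM in HCC827, 1.15 to 6.76 TPM in H1975, 5.46 to 15.1 TPM in PC9 and 11.4 to 22.4 TPM in HCC2935. The part of these markers in the ligand results was not tested. Proliferation genes were lower in all 10 of 10 cases in every line, both under acute osimertinib and in DTPs. By distance between expression profiles, 15 of the 60 libraries had their nearest neighbour in another arm of the same line, 8 of them in HCC827 and 4 in H1975, and each of these was a DTP or washout library. In bulk RNA, fewer cells that make a ligand and less ligand mRNA per cell cannot be told apart.

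AREG, EREG, EPGN and BTC are neighbours. In the GENCODE annotation of GRCh38 they occupy chr4:74308473-74794686, a stretch of 486 kb whose 4 protein-coding genes are these 4 ligands. EPGN (chr4:74308473-74315307), EREG (chr4:74365143-74388751) and AREG (chr4:74445134-74455009) lie on the plus strand, and BTC (chr4:74744759-74794686) on the minus strand. EGF lies further along the same chromosome at chr4:109912884-110012266 on the plus strand. TGFA is at chr2:70447280-70554193 and HBEGF at chr5:140332843-140346631, both on the minus strand. No other annotated gene overlapped AREG, EREG, HBEGF, BTC or EPGN.

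RefSeq's promoter windows (GRCh38.p14, 250 bases before to 50 after each transcription start) had an entry for 7 of the 8 ligands and none for NRG1. Those of AREG and EREG, neighbours that mostly moved together below, and of HBEGF, which mostly did not move with them, are shown 5′ to 3′, with motif matches in capitals.
AREG (chr4:74444886-74445185, plus strand): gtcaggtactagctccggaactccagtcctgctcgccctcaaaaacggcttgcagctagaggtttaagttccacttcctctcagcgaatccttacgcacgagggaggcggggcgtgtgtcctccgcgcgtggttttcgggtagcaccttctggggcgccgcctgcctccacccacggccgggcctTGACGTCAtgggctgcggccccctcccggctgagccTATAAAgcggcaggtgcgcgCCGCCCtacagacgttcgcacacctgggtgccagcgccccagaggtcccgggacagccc
EREG (chr4:74364895-74365194, plus strand): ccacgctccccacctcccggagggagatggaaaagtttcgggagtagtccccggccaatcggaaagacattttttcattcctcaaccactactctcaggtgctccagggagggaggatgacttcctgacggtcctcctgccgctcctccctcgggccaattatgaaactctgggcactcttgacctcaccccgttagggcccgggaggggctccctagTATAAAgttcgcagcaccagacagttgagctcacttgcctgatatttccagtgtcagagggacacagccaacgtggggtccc
HBEGF (chr5:140346554-140346853, minus strand): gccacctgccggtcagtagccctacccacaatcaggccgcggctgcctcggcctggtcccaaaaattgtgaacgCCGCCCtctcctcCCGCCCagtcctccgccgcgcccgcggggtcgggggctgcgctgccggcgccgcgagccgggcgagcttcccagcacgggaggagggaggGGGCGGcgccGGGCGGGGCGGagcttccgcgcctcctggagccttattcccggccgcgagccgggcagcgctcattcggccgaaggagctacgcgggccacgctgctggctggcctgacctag
Searched on both strands were the cAMP response element TGACGTCA, the AP-1 site TGANTCA, the GC box GGGCGG and the TATA box TATAAA, and 2 of the GC boxes of HBEGF share a base. AREG's window held TGACGTCA starting 65 bases before the start site, a TATA box 29 bases before it and 1 GC box. EREG's window held a TATA box 32 bases before the start site. HBEGF's window held 5 GC boxes and no TATA box. These windows were chosen by how the genes changed. Of those not shown, 1 of TGFA held 4 GC boxes and no TATA box, and its other held no match. EPGN's held a TATA box 29 bases before the start site, BTC's 1 GC box and EGF's 1 AP-1 site. TGFA moved with AREG and EREG more closely than HBEGF did. The part of these motifs in the ligand changes was not tested. Over 35116 promoter windows of the same length, TGACGTCA was present in 1.85%, TGANTCA in 7.71%, GGGCGG in 45% and TATAAA in 11.5%.

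**Figure D1:**
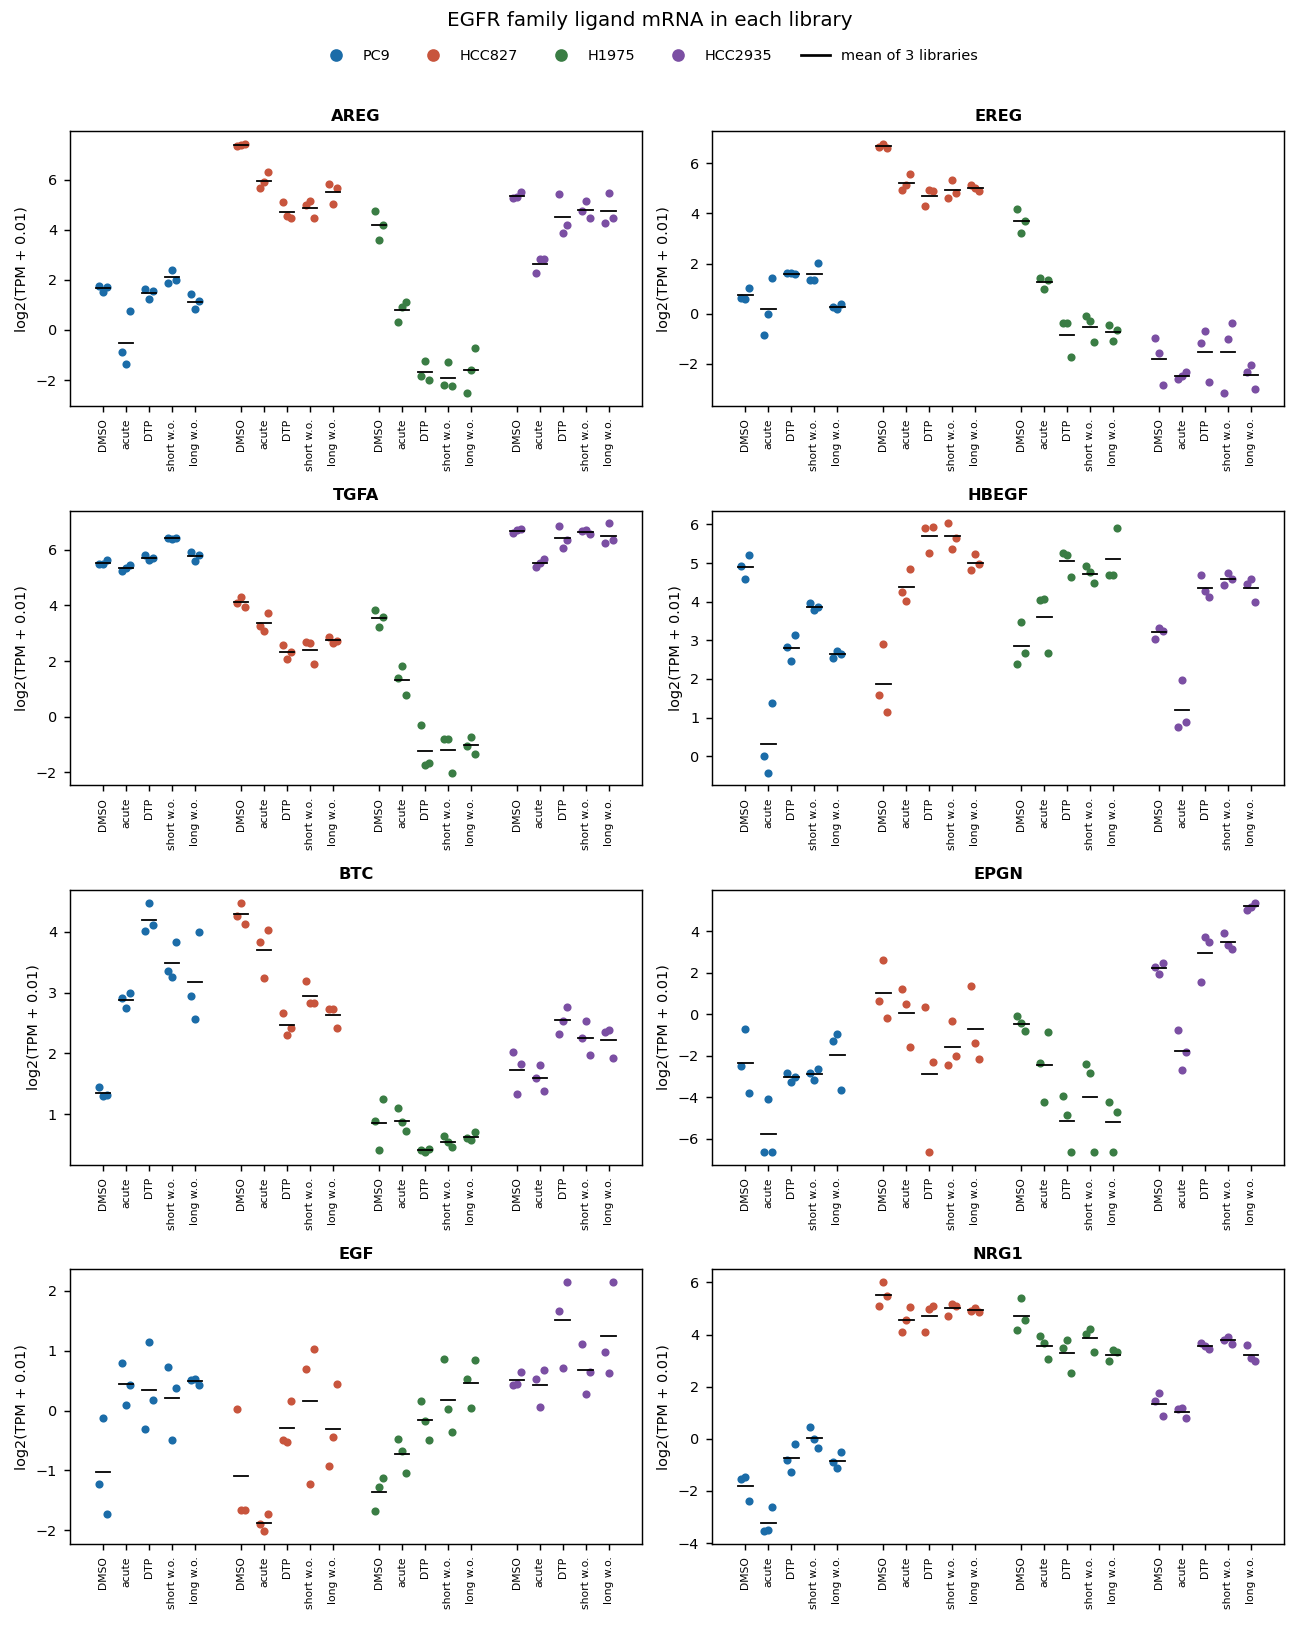
Level of each ligand in each of the 60 libraries, as log2(TPM + 0.01) on the vertical axis, with 1 panel per ligand and the 5 arms of each line along the horizontal axis (w.o., washout). Points are libraries and bars are means of 3. HBEGF is seen to fall from DMSO to DTP in PC9 and to rise in HCC827, H1975 and HCC2935, while AREG, EREG and TGFA fall from DMSO to DTP in H1975 and HCC827.

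Under DMSO TGFA led in PC9 and HCC2935, AREG in HCC827 and NRG1 in H1975. In PC9 the 8 ligands summed to 85.5 ± 9.10 TPM (SD, n = 3), of which TGFA held 54.6% and HBEGF 35.4%. HCC827 had the highest sum, 363 ± 32.5 TPM, with 46.2% from AREG, 28.3% from EREG and 13.1% from NRG1. In H1975 the sum was 82.9 ± 5.62 TPM and was spread more evenly, with NRG1 at 33.6%, AREG at 23.0% and EREG at 16.3%. HCC2935 summed to 166 ± 9.21 TPM, 62.1% of it TGFA and 24.8% AREG. EGF, the ligand that names the family, stood at 0.385 to 1.41 TPM on average and was the lowest or among the 3 lowest ligands in each line.

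The order within a line was not always resolved by the replicates. In H1975 the libraries of each neighbouring pair from NRG1 through AREG, EREG and TGFA to HBEGF overlapped. In HCC827 the levels of BTC and TGFA overlapped, as did those of HBEGF and EPGN, and of EPGN and EGF. In PC9 EGF, NRG1 and EPGN could not be put in order, and in HCC2935 neither could EPGN and BTC nor BTC and NRG1.

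Between lines under DMSO, 37 of 48 ligand comparisons (8 ligands in 6 pairs of lines) were called, beside 64.7% of all gene tests. NRG1, the neuregulin that acts through ERBB3, showed one of the widest spans. It stood at 0.331, 0.356 and 0.183 TPM in PC9, and at 34.1, 64.8 and 44.2 TPM in HCC827. All PC9 libraries lay below all HCC827 libraries, with a log2 fold change of -7.20 ± 0.44 (adjusted p = 1.2e-08). EREG, epiregulin, spanned from 0.503, 0.324 and 0.129 TPM in HCC2935 to 101, 109.6 and 97.7 TPM in HCC827, a difference of 8.55 ± 0.35 (adjusted p = 3.17e-10). AREG in PC9 stood at -5.58 ± 0.25 against HCC827 (adjusted p = 1.02e-09). HBEGF was highest in PC9 and was not called to differ among the other lines, with an adjusted p of 0.114 for HCC827 against H1975, 0.0574 for HCC827 against HCC2935 and 0.736 for H1975 against HCC2935. With every library kept, HCC827 against HCC2935 was called by DESeq2 (adjusted p = 0.0264), by limma at both pseudocounts (0.0102 and 0.0103), with library size only (0.0333), with at least 10 counts in every library (0.0445) and with the replicate block (0.0264). HCC827 against H1975 was called with library size only (adjusted p = 0.0487) and with the block in the 6 libraries compared (0.0217). Without HCC827 replicate 2, HCC827 was called lower than H1975 (-1.42) and than HCC2935 (-1.58). EGF differed in 1 of its 6 pairs, H1975 against HCC2935, by -1.73 ± 0.52 (adjusted p = 0.00932). A further EGF pair was called without PC9 replicate 2 (PC9 against HCC2935, -1.59) and another without HCC827 replicate 1 (HCC827 against HCC2935, -1.95).

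**Figure D2:**
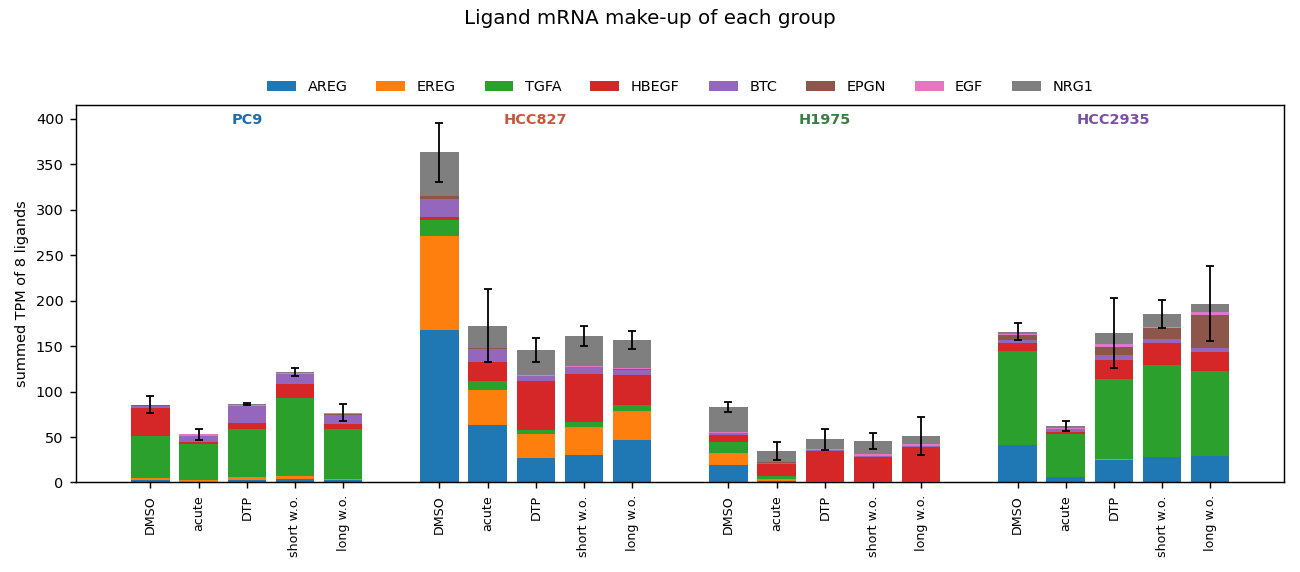
Make-up of ligand mRNA in each of the 20 groups. Bars start at 0 and stack the mean TPM of the 8 ligands, and error bars are the SD of the summed TPM over 3 libraries. HCC827 under DMSO has the tallest bar at 363 TPM, and HBEGF (red) takes 70.7% of the bar of H1975 DTPs and 36.5% of that of HCC827 DTPs.

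The make-up changed with treatment, given here as a description. Acute osimertinib left a sum of 53.0 TPM in PC9, 173 TPM in HCC827, 34.9 TPM in H1975 and 62.1 TPM in HCC2935. In PC9 and HCC2935 the sum in DTPs, 86.2 and 164 TPM, lay near that under DMSO, and TGFA still led in both. In HCC827 and H1975 DTPs the sums were 146 and 47.5 TPM, and HBEGF had taken the lead from AREG and NRG1. In PC9 DTPs the second place had gone from HBEGF to BTC, which held 21.5% of the sum.

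Acute osimertinib called 19 of 31 ligand tests, 16 lower and 3 higher, beside 51% of all gene tests called, 24.5% lower and 26.5% higher. EPGN was not tested in PC9, where it held 0 to 15 counts a library. By line, the called ligands were 5 of 7 in PC9 (3 lower, 2 higher), 6 of 8 in HCC827 (5 lower, 1 higher), 4 of 8 in H1975 and 4 of 8 in HCC2935 (all lower). The shares of all genes called were 66.2% in PC9 (31.7% lower, 34.5% higher), 39% in HCC827 (20.2% lower, 18.7% higher), 51.6% in H1975 (23.8% lower, 27.8% higher) and 47.1% in HCC2935 (22.2% lower, 24.9% higher). The share of ligands called was thus near the background outside HCC827. The median log2 fold change of the ligands was -0.25 in PC9, -1.06 in HCC827, -1.31 in H1975 and -1.001 in HCC2935, beside medians of all genes of 0.07, 0.02, 0.10 and 0.07. ERK output genes, such as the phosphatase DUSP6 and the feedback inhibitor SPRY4, were called lower in 11, 10, 10 and 12 of 12 in PC9, HCC827, H1975 and HCC2935.

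In DTPs against DMSO 19 of 31 tests were again called, but 11 were lower and 8 higher, beside 54.3% of all gene tests (26.4% lower, 27.9% higher). PC9 had 3 of 7 called (1 lower, 2 higher), HCC827 6 of 8 (5 lower, 1 higher), H1975 7 of 8 (5 lower, 2 higher) and HCC2935 3 of 8 (all higher). The shares of all genes were 69.2% in PC9 (33.5% lower, 35.7% higher), 43.4% in HCC827 (20.4% lower, 23% higher), 51.7% in H1975 (25.7% lower, 26% higher) and 52.8% in HCC2935 (25.8% lower, 27% higher). The ligands' median log2 fold change was 0.59 in PC9, -1.84 in HCC827, -2.89 in H1975 and 0.73 in HCC2935, beside 0.06, 0.03, 0.02 and 0.04 for all genes. DTPs against acute drug gave 18 of 31 calls, 12 higher and 6 lower, beside 36.4% of all gene tests (18.8% higher, 17.6% lower). PC9 and HCC2935 held 10 of the 12 higher calls and 0 of the 6 lower ones. Of all genes, 33.9% were called in PC9 (16.1% higher, 17.8% lower) and 44.7% in HCC2935 (22.8% higher, 21.9% lower). In HCC827 29.4% were called (18% higher, 11.5% lower) and in H1975 37.2% (18.3% higher, 18.9% lower). The comparisons with DMSO share their DMSO libraries.

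The lines differed from each other in most of these changes. A test of equal log2 fold changes in the 4 lines, made in a fit of all 60 libraries, called 6 of 8 ligands for acute drug against DMSO, beside 41.4% of all genes. For DTPs against DMSO it called 7 of 8, beside 63.9% of all genes.

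**Figure D3:**
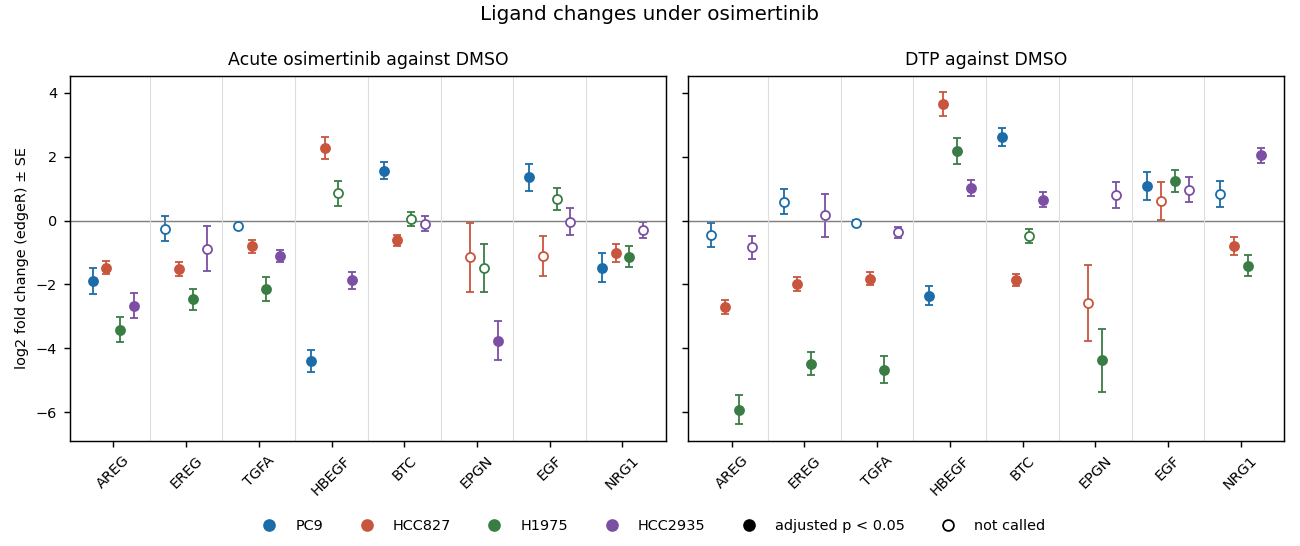
Log2 fold change ± SE (edgeR) of each ligand in each line, under acute osimertinib (left) and in DTPs (right), each against DMSO. Filled points are called at an adjusted p under 0.05 and open points are not. HBEGF and BTC have called changes in both directions in both panels, HBEGF at -4.40 in PC9 and 2.27 in HCC827 on the left, and the EPGN point of H1975 on the right rests on 2 counts in DTPs.

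AREG, amphiregulin, was the 1 ligand called lower under acute drug in all 4 lines. In PC9 it read 3.34, 2.85 and 3.31 TPM under DMSO and 0.534, 0.375 and 1.66 TPM under acute drug. HCC827 libraries held 162, 169.5 and 172 TPM under DMSO, against 50.9, 60.6 and 78.2 TPM. In H1975 the levels were 27.0, 12.1 and 18.1 TPM, and 1.24, 1.86 and 2.15 TPM after acute drug. The DMSO and acute groups did not overlap in any of these lines, and neither did they in HCC2935, where AREG went from 38.3, 39.9 and 45.3 TPM to 4.81, 7.09 and 7.10 TPM. The log2 fold changes were -1.88 ± 0.40 in PC9 (adjusted p = 0.000832), -1.48 ± 0.20 in HCC827 (6.45e-05), -3.42 ± 0.39 in H1975 (7.84e-06) and -2.67 ± 0.39 in HCC2935 (4.01e-05), and they differed among lines (adjusted p = 0.00408). Acute replicate 3 of PC9 read higher than its fellows, and without it the change there was -2.78. DUSP6, looked at after these values were seen, was also highest in that library, at 0.933 TPM beside 0.367 and 0.212 TPM, and what part this had in the result was not tested.

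In DTPs AREG parted by line. It stayed low in HCC827, at 34.1, 23.2 and 22.3 TPM, and in H1975, at 0.269, 0.408 and 0.243 TPM, all below the acute libraries of the same line. The changes against DMSO were -2.70 ± 0.22 in HCC827 (adjusted p = 5.07e-07) and -5.91 ± 0.46 in H1975 (4.77e-07), the latter a mean 62.2-fold lower in TPM. The H1975 DTP libraries held 10, 17 and 9 counts of AREG. In PC9 the DTP libraries, at 3.10, 2.32 and 2.90 TPM, overlapped those under DMSO, with a change of -0.44 ± 0.38 (adjusted p = 0.309). HCC2935 DTPs held 43.0, 14.4 and 18.4 TPM, a change of -0.84 ± 0.35 that missed the call (adjusted p = 0.0557). It was called by DESeq2 (adjusted p = 0.0271), with library size only (0.0483), with all 60 libraries in the fit (0.0255) and with the replicate block in the 6 libraries compared (0.0241). Without the first of these 3 libraries it was called at -1.48. The line difference was called (adjusted p = 1.38e-10). Against acute drug, DTPs were higher in PC9 by 1.44 ± 0.40 (adjusted p = 0.0133), a call that was lost without acute replicate 1 (1.20) or 2 (1.08). Without acute replicate 3 it was 2.33. They were also higher in HCC2935, by 1.83 ± 0.38 (adjusted p = 0.0011, and 1.19 without DTP replicate 1).

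EREG, epiregulin, was lower at both times in HCC827 and H1975. HCC827 held 101, 109.6 and 97.7 TPM under DMSO, 30.8, 34.8 and 48.3 TPM under acute drug and 19.5, 30.3 and 29.7 TPM in DTPs. In H1975 it went from 18.002, 9.38 and 13.1 TPM to 2.66, 1.99 and 2.54 TPM and then to 0.760, 0.760 and 0.290 TPM. Neither treated group overlapped DMSO in these lines. The acute changes were -1.51 ± 0.21 in HCC827 (adjusted p = 7.58e-05) and -2.47 ± 0.33 in H1975 (2.57e-05), and those in DTPs -1.97 ± 0.22 (8.1e-06) and -4.48 ± 0.37 (6.28e-07). In PC9, at 1.54, 1.49 and 2.05 TPM under DMSO, the acute libraries were scattered at 0.546, 0.987 and 2.69 TPM and no change was called (-0.25 ± 0.39, adjusted p = 0.58). Without acute replicate 3 it was called at -1.09 (adjusted p = 0.00339). The PC9 DTPs held 3.06, 3.08 and 2.96 TPM, all above the DMSO libraries, with a change of 0.59 ± 0.39 that was not called (adjusted p = 0.187). It was called by limma with a pseudocount of 1 (adjusted p = 0.0415), and by edgeR in the 6 libraries compared without the replicate block (0.0105) and with it (0.0175). EREG in HCC2935 stood at 0.129 to 0.503 TPM under DMSO with 7 to 32 counts a library, and was not called there at either time (adjusted p of 0.316 and 0.856). The lines differed for acute drug (adjusted p = 0.00268, lost with limma on log2 TPM at a pseudocount of 0.01, 0.0785) and for DTPs (2.03e-10).

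TGFA, transforming growth factor alpha, was the leading ligand of PC9 and HCC2935. HCC2935 libraries read 96.8, 104.7 and 108 TPM under DMSO and 41.7, 46.2 and 51.0 TPM under acute drug, with no overlap and a change of -1.12 ± 0.19 (adjusted p = 0.000138). They read 115, 67.8 and 81.1 TPM in DTPs, where the groups overlapped and the change of -0.37 ± 0.18 was not called (adjusted p = 0.1). Without DTP replicate 1, which also carried the highest AREG, it was called at -0.63. In H1975 TGFA fell from 14.2, 9.38 and 11.99 TPM to 2.61, 3.52 and 1.72 TPM and to 0.809, 0.286 and 0.306 TPM. The changes against DMSO were -2.14 ± 0.36 (adjusted p = 0.00021) and -4.66 ± 0.42 (1.29e-06, and -5.29 without DTP replicate 1). HCC827 gave -0.81 ± 0.19 (adjusted p = 0.00358) and -1.82 ± 0.20 (6.9e-06). PC9 gave -0.19 ± 0.08 (adjusted p = 0.0608) and -0.08 ± 0.08 (0.432). Its acute libraries, at 37.5, 40.4 and 43.5 TPM, lay below those under DMSO, at 44.9, 44.99 and 50.2 TPM, and the acute change was called by DESeq2 (adjusted p = 0.026), by limma at both pseudocounts (0.0483 and 0.0489), with RLE size factors (0.034), with library size only (0.0495) and with the replicate block in the 6 libraries compared (0.0336). The sign in PC9 DTPs turned to 0.07 with library size only and 0.17 by limma on log2 TPM, none of them called. In this comparison the median over all genes lay 0.14 higher with library size only and 0.25 higher in log2 TPM than in the fit reported. The lines differed at both times (adjusted p of 3.13e-05 and 2.88e-14).

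HBEGF, the heparin-binding ligand, changed in opposite directions. In PC9 it went from 30.1, 23.9 and 36.8 TPM under DMSO to 0.987, 0.733 and 2.59 TPM under acute drug, a change of -4.40 ± 0.35 (adjusted p = 1.47e-07, and -5.12 without acute replicate 3). In HCC827 it went the other way, from 2.99, 7.52 and 2.20 TPM to 18.9, 16.3 and 28.8 TPM, a change of 2.27 ± 0.36 (adjusted p = 0.000189). The groups did not overlap in either line. HCC2935 resembled PC9 in direction, from 8.23, 9.99 and 9.51 TPM to 1.67, 3.91 and 1.82 TPM, or -1.87 ± 0.27 (adjusted p = 4.32e-05). H1975 read 5.23, 11.2 and 6.40 TPM against 16.6, 16.7 and 6.33 TPM, a change of 0.85 ± 0.39 that was not called (adjusted p = 0.0841). It was called without DMSO replicate 2 (1.20) or acute replicate 3 (1.19). The lines differed (adjusted p = 3.15e-12).

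By the DTP stage HBEGF was called higher than DMSO in 3 of the 4 lines. HCC827 DTPs held 59.8, 38.4 and 61.7 TPM (3.63 ± 0.37, adjusted p = 4.22e-06), and H1975 DTPs 38.6, 37.0 and 25.0 TPM (2.17 ± 0.40, adjusted p = 0.00043). Without HCC827's DMSO replicate 2, the highest of its group, the changes in HCC827 were 2.97 for acute drug and 4.33 for DTPs. HCC2935 DTPs held 25.6, 19.4 and 17.3 TPM, above all DMSO libraries (1.02 ± 0.25, adjusted p = 0.0024). PC9 DTPs, at 7.12, 5.48 and 8.73 TPM, stayed below all DMSO libraries (-2.34 ± 0.31, adjusted p = 1.21e-05). Against acute drug, however, HBEGF was called higher in DTPs of every line, at 2.05 ± 0.33 in PC9, 1.37 ± 0.33 in HCC827, 1.32 ± 0.39 in H1975 and 2.89 ± 0.27 in HCC2935. The adjusted p-values were 0.000336, 0.00662, 0.0164 and 6.19e-07, the call in H1975 was lost without acute replicate 3 (0.98), and the value in PC9 was 2.77 without acute replicate 3. The change against DMSO differed among lines (adjusted p = 1.74e-11).

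BTC, betacellulin, rose in PC9 and fell in HCC827. PC9 held 2.70, 2.45 and 2.49 TPM under DMSO, 7.49, 6.72 and 7.92 TPM under acute drug and 16.1, 22.2 and 17.3 TPM in DTPs, 3 groups without overlap. The changes against DMSO were 1.55 ± 0.26 (adjusted p = 0.000117) and 2.61 ± 0.27 (1.35e-06). HCC827 held 19.2, 22.3 and 17.5 TPM, then 14.3, 9.49 and 16.3 TPM, then 6.36, 4.93 and 5.32 TPM. Its acute change of -0.62 ± 0.18 (adjusted p = 0.0142) was lost without DMSO replicate 2 (-0.53) or acute replicate 2 (-0.41), whereas that in DTPs was -1.86 ± 0.19 (4.35e-06). In HCC2935 DTPs BTC was called higher by 0.65 ± 0.23 (adjusted p = 0.0258), a call lost without DMSO replicate 2 (0.48), DMSO replicate 3 (0.66) or DTP replicate 3 (0.53), or in a fit of only the 6 libraries compared (0.63). H1975 held 1.29 to 2.38 TPM in the 3 arms, with changes of 0.04 ± 0.22 and -0.48 ± 0.23 that were not called (adjusted p of 0.882 and 0.0894). The latter was called without DMSO replicate 2 (-0.70). The lines differed at both times (adjusted p of 2.51e-06 and 2.5e-14).

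EPGN, epigen, was low in most groups. HCC2935 read 4.82, 3.85 and 5.58 TPM under DMSO and 0.587, 0.145 and 0.271 TPM under acute drug, on 1 to 6 counts a library, a change of -3.76 ± 0.61 (adjusted p = 0.000112, and -4.66 without acute replicate 1). In DTPs it read 2.93, 13.3 and 11.2 TPM, which overlapped DMSO (0.80 ± 0.41, adjusted p = 0.117). Without DTP replicate 1 it was called at 1.22. H1975 held 22, 15 and 12 counts under DMSO and 1, 1 and 0 counts in DTPs, a ratio of DMSO to DTPs of 24.8 (95% exact interval 6.51 to 210.5, counting error only). The difference there was called (adjusted p = 0.00193). Under acute drug it held 4, 1 and 11 counts and was not called (-1.49 ± 0.74, adjusted p = 0.106), but was without acute replicate 3 (-2.64). In HCC827 EPGN read 1.54, 6.03 and 0.882 TPM under DMSO and was called at neither time (adjusted p of 0.437 and 0.0923), though the DTP change was called at -4.73 without DTP replicate 1. The test among lines called DTPs (adjusted p = 0.00443) and not acute drug (0.17, and 0.0385 without HCC827 DMSO replicate 2).

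Under acute drug and in DTPs, EGF calls were made only in PC9 and H1975, all higher and from low levels. PC9 read 0.418, 0.912 and 0.291 TPM under DMSO, 1.73, 1.05 and 1.34 TPM under acute drug and 0.801, 2.20 and 1.11 TPM in DTPs. The acute change of 1.35 ± 0.43 (adjusted p = 0.0133) was lost without DMSO replicate 1 (1.18) or 3 (1.05), and became 1.96 without DMSO replicate 2. The DTP change of 1.08 ± 0.43 (adjusted p = 0.038) was lost without DMSO replicate 1 (0.91), DMSO replicate 3 (0.79) or DTP replicate 2 (0.56) or in a fit of only the 6 libraries compared (1.06), and became 1.69 without DMSO replicate 2. H1975 DTPs, at 1.11, 0.881 and 0.699 TPM, lay above the DMSO libraries at 0.303, 0.404 and 0.449 TPM, by 1.23 ± 0.34 (adjusted p = 0.00692). In HCC2935 DTPs the change of 0.97 ± 0.40 was not called (adjusted p = 0.053), and was called without DTP replicate 2 (1.28). A difference among lines was called for acute drug (adjusted p = 0.0291), where it was lost on leaving out any of 6 libraries with an adjusted p of up to 0.161. The libraries were HCC827 DMSO 1, acute 1 and acute 2, and PC9 DMSO 1, DMSO 3 and acute 1, and the call was also lost with limma at a pseudocount of 1 (0.137). For DTPs no difference among lines was called (adjusted p = 0.845).

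NRG1, neuregulin 1 (chr8:31639386-32767959, plus strand), was lower under acute drug in 3 lines. HCC827 held 34.1, 64.8 and 44.2 TPM under DMSO and 17.1, 23.6 and 33.4 TPM under acute drug, groups that did not overlap (-1.02 ± 0.29, adjusted p = 0.0117). The call was lost without DMSO replicate 2 (-0.75) or acute replicate 1 (-0.84). H1975 held 17.96, 42.2 and 23.5 TPM against 15.4, 12.8 and 8.45 TPM (-1.14 ± 0.33, adjusted p = 0.00973), and this call was lost without DMSO replicate 2 (-0.75). PC9 had 4 to 23 counts a library in these arms, with a change of -1.48 ± 0.46 (adjusted p = 0.0104), which limma on log2 TPM at a pseudocount of 1 did not call (-0.22). In DTPs HCC2935 stood apart, going from 2.70, 3.34 and 1.83 TPM under DMSO to 12.8, 11.9 and 11.01 TPM. This was a change of 2.03 ± 0.23 (adjusted p = 2.18e-06) with no overlap, and its acute libraries, at 2.17, 2.29 and 1.72 TPM, had not been called (-0.30 ± 0.24, adjusted p = 0.332). H1975 DTPs remained below DMSO by -1.41 ± 0.33 (adjusted p = 0.00249). HCC827 DTPs gave -0.80 ± 0.29 (adjusted p = 0.0356), lost without DMSO replicate 2 or DTP replicate 1 (-0.53 in both) and in a fit of only the 6 libraries compared (-0.80). PC9 DTPs gave 0.83 ± 0.40 (adjusted p = 0.0782), called without DTP replicate 2 (1.05). The lines differed in DTPs (adjusted p = 2.29e-08), and a difference was not called for acute drug (0.34).

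Withdrawing the drug for 24 h called 1 of 31 ligand tests, beside 2.27% of all gene tests, 1.56% higher and 0.713% lower (5.92% in PC9, 0% in HCC827, 0.0585% in H1975 and 3.14% in HCC2935). The call was TGFA in PC9, which rose from 56.7, 49.4 and 52.0 TPM in DTPs to 86.2, 84.9 and 87.0 TPM after short washout, with no overlap (0.72 ± 0.08, adjusted p = 0.000913, and 0.0503 in a fit of all 60 libraries). These were also the highest TGFA levels of the line, above DMSO by 0.64 ± 0.08 (adjusted p = 1.86e-05). HBEGF in PC9 read 15.5, 13.8 and 14.6 TPM, each above the DTP libraries, but missed the call (1.05 ± 0.30, adjusted p = 0.0541). DESeq2 called it (adjusted p = 0.00945), and over the alternatives that kept every library its adjusted p ran from 0.00262 to 0.0871. In the other 3 lines 0 ligands were called by edgeR, with an unadjusted p under 0.05 for BTC in HCC827 (0.48 ± 0.19) and EGF in HCC2935 (-0.89 ± 0.40). A difference among lines was called for 0 of 8 ligands, beside 0.0121% of all genes, with 2 of 8 at an unadjusted p under 0.05 and 0 by DESeq2 or limma.

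In H1975 and HCC827 the same-numbered DTP and short washout libraries deviated together, so each pair may share a culture. An edgeR fit of these 6 libraries with the replicate number as a block called 11.6% of all genes in H1975. The same 6 libraries without the block gave 0 calls of 14665 genes (1950 at an unadjusted p under 0.05), and all 15 libraries without it gave 0.0585%. With the block NRG1 was higher after short washout in H1975 by 0.53 (adjusted p = 0.0122), at 16.1, 18.4 and 10.2 TPM beside 11.2, 13.9 and 5.82 TPM in the DTPs of the same number. HBEGF was lower, with a log2 fold change of -0.36 (adjusted p = 0.0146), at 30.3, 27.3 and 22.2 TPM beside 38.6, 37.0 and 25.0 TPM. Each of the 3 pairs moved the same way for both genes. Neither gene was called without the block in the 6 libraries, or with the block in all 15. In HCC827 the blocked fit called 0.0143% of genes and 0 of the 7 ligands tested.

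After long washout 3 of 31 ligand tests were called against DTPs, 1 higher and 2 lower, beside 12.2% of all gene tests, 6.78% higher and 5.4% lower (37.2% in PC9, 0% in HCC827, 0.0065% in H1975 and 11.8% in HCC2935). EPGN in HCC2935 rose furthest, to 32.7, 35.7 and 41.4 TPM, above all DTP libraries by 2.05 ± 0.40 (adjusted p = 0.00368, and 0.0522 in a fit of all 60 libraries) and above DMSO by 2.85 ± 0.42 (5.19e-05). It then held 18.6% of the ligand sum of 197 TPM. In PC9, 7 days without drug, EREG was lower than in DTPs, at 1.18, 1.12 and 1.29 TPM against 3.06, 3.08 and 2.96 TPM (-1.26 ± 0.39, adjusted p = 0.0224). The groups did not overlap, yet the call was lost without long washout replicate 1 or 2 or DTP replicate 2 or 3, with adjusted p-values up to 0.0659 and values of -1.24 to -1.26. BTC in PC9 read 7.69, 5.89 and 16.0 TPM against 16.1, 22.2 and 17.3 TPM (-0.86 ± 0.25, adjusted p = 0.0162). It was -1.29 without long washout replicate 3, and the call was lost without long washout replicate 1 (-0.71) or 2 (-0.62) or DTP replicate 2 (-0.71) and in a fit of only the 6 libraries compared (-0.83).

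**Figure D4:**
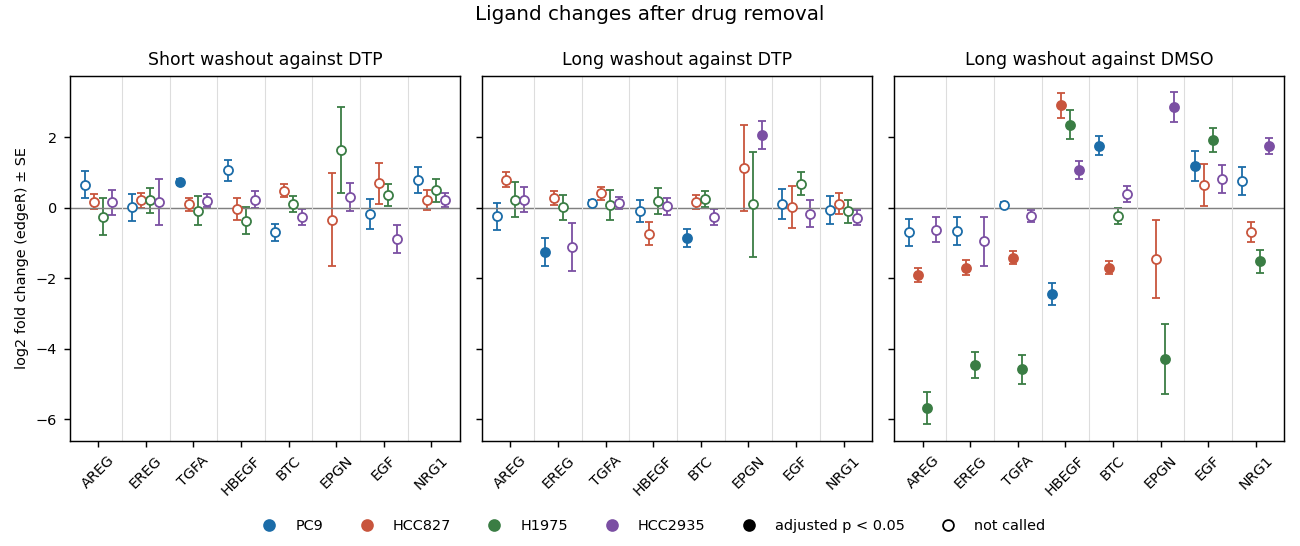
Log2 fold change ± SE (edgeR) of each ligand after short washout against DTPs (left), long washout against DTPs (middle) and long washout against DMSO (right), with colours and fills as in the plot of changes under osimertinib. In the left and middle panels 1 and 3 points are filled, and the right panel has 18 filled points.

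After long washout 3 of 31 ligand tests were called against DTPs, near the 12.2% of all gene tests. That share pools unlike lines. By line, 2 of 7 ligands were called in PC9, 1 of 8 in HCC2935 and 0 of 8 in HCC827 and H1975. Beside them stood 37.2%, 11.8%, 0% and 0.0065% of all genes, so the ligand calls lay near the background in each line. Against DMSO, 18 of 31 tests were called, 10 lower and 8 higher, beside 45.9% of all gene tests (22.1% lower, 23.8% higher), and short washout against DMSO gave 19 of 31 (10 lower, 9 higher), beside 48.4% (23.7% lower, 24.6% higher). In H1975, 3 days without drug, AREG stood at 0.163, 0.320 and 0.600 TPM, still -5.68 ± 0.46 against DMSO (adjusted p = 5.67e-07, and -6.29 without long washout replicate 3). These H1975 libraries held 6, 11 and 22 counts of AREG. TGFA there was at -4.58 ± 0.42 (adjusted p = 1.29e-06), EREG at -4.46 ± 0.37 (6.56e-07) and HBEGF at 2.36 ± 0.40 (0.000212). In HCC827, 4 days without drug, AREG read 56.4, 32.3 and 50.2 TPM, which overlapped DTPs by 1 library and stayed below DMSO (-1.90 ± 0.21, adjusted p = 9.71e-06). HBEGF read 28.4, 37.4 and 31.3 TPM there, below all DTP libraries without a call against them (-0.74 ± 0.33, adjusted p = 1) and above DMSO by 2.90 ± 0.36 (2.74e-05, and 3.60 without DMSO replicate 2). In HCC2935 NRG1 stayed above DMSO by 1.75 ± 0.23 (adjusted p = 1.61e-05), and in PC9 HBEGF stayed below it by -2.44 ± 0.31 (4.4e-05). In H1975 and HCC827, 0 of 8 ligands were called against DTPs by edgeR or DESeq2, and at an unadjusted p under 0.05 only AREG and HBEGF in HCC827. Of all genes, edgeR called 0.0065% and 0% in these lines.

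Proliferation and ERK output genes were counted in the same comparison. In this comparison 20.4% of all genes were called higher in PC9, 6.82% in HCC2935, and 0% in HCC827 and H1975. All 10 proliferation genes were higher than in DTPs in PC9 and in HCC2935, and 0 of 10 were called in HCC827 and H1975. Of the 12 ERK output genes, 7 were called higher in PC9 and 6 in HCC2935, and 0 in HCC827 and H1975. ETV4, a transcription factor of this list, was higher by 2.17 ± 0.37 in PC9 (adjusted p = 0.00125). Of the ligands, EPGN was called higher in HCC2935, and EREG and BTC lower in PC9. AREG was not called in either of these lines (-0.25 ± 0.38 in PC9 and 0.22 ± 0.35 in HCC2935), and neither was HBEGF (-0.10 ± 0.30 and 0.05 ± 0.24). In DTPs AREG had overlapped DMSO in both lines. HBEGF had been below DMSO in PC9 DTPs and above it in those of HCC2935. A link between the ligands and the ERK output genes was not tested.

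The receptors of the ligands also shifted. ERBB3, which binds NRG1, was higher under acute drug in PC9 by 2.32 ± 0.15 (adjusted p = 3.94e-08), in HCC827 by 1.17 ± 0.36 (0.0184), in H1975 by 1.25 ± 0.43 (0.0247) and in HCC2935 by 0.75 ± 0.11 (3.26e-05, added after its value was seen). The acute libraries of H1975, at 19.9, 57.0 and 77.9 TPM, overlapped those under DMSO. In DTPs ERBB3 was still higher in PC9 (1.35 ± 0.15, adjusted p = 2.04e-06), and lower in H1975, from 29.8, 9.13 and 26.8 TPM under DMSO to 2.18, 1.95 and 1.82 TPM (-3.46 ± 0.48, adjusted p = 4.12e-05). In HCC2935 DTPs, where NRG1 rose, ERBB3 was lower by -0.88 ± 0.11 (adjusted p = 5.06e-06). In HCC827 DTPs it was lower, at a mean of 18.9 TPM beside 38.1 TPM under DMSO (-1.07 ± 0.36, adjusted p = 0.0271). EGFR, the target of osimertinib, was lower in DTPs of HCC827 (-0.68 ± 0.09) and H1975 (-0.79 ± 0.09) and higher in those of HCC2935 (0.54 ± 0.11), with adjusted p of 6.14e-05, 7.39e-06 and 0.000639. In PC9 DTPs its direction turned with the scale, at -0.20 ± 0.07 in the edgeR fit (adjusted p = 0.021) but at a mean of 242 TPM beside 234 TPM under DMSO. Of the 4 receptors, the calls in DTPs were 2 higher and 1 lower of 4 tested in PC9, 2 and 2 of 4 in HCC827, 1 and 2 of 3 in H1975, and 3 and 1 of 4 in HCC2935. In these comparisons 69.2%, 43.4%, 51.7% and 52.8% of all genes were called.

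Genes that release or restrain ligands and receptors were counted from lists. Of 15 genes for shedding and trafficking, 14 were called in DTPs of PC9 (7 higher, 7 lower), 8 of HCC827 (6 higher, 2 lower), 6 of the 14 tested of H1975 (3 higher, 3 lower) and 10 of HCC2935 (9 higher, 1 lower), beside the same shares of all genes. ADAM19, a metalloprotease that cleaves neuregulin, was lower in PC9 DTPs (-2.40 ± 0.15, adjusted p = 9.08e-08) and higher in HCC827 DTPs (3.23 ± 0.27, 6.72e-07). TIMP3, an inhibitor of ADAM proteases, was higher in HCC2935 DTPs (3.63 ± 0.32, adjusted p = 1.84e-07). Of 6 negative regulators of the receptors, all tested, 5 were called in DTPs of PC9 (2 higher, 3 lower), 5 of HCC827 (4 higher, 1 lower), 2 of H1975 (both higher) and 4 of HCC2935 (2 higher, 2 lower). Beside them, 69.2%, 43.4%, 51.7% and 52.8% of all genes were called in these lines. ERRFI1, an inhibitor of EGFR, was lower under acute drug in PC9 (-1.77 ± 0.27, adjusted p = 4.98e-05), HCC827 (-1.26 ± 0.17, 5.49e-05) and HCC2935 (-1.18 ± 0.11, 4.74e-07). Of the 3 other neuregulins, 2 were tested in PC9, 0 in HCC827, 1 in H1975 and 1 in HCC2935. In PC9 NRG2 and NRG4 were called higher at both times, by 1.93 ± 0.47 and 1.13 ± 0.41 in DTPs (adjusted p of 0.00216 and 0.0248). Beside them, 34.5% of all genes under acute drug and 35.7% in DTPs were called higher there. The genes tested in H1975 and HCC2935 were not called under acute drug or in DTPs.

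The ligands' patterns over the 20 groups were compared by Pearson's r of mean log2 CPM (counts scaled to library size), centred within each line. Compared were the 13806 genes whose mean reached 1 CPM. These values are descriptions: the 5 groups of a line share libraries of 1 depth class and a treatment order. The gene most like AREG was TGFA (r = 0.93), and EREG was its ninth (r = 0.88). TGFA was also the gene most like EREG (r = 0.94), and FOXA2, a lung epithelial transcription factor, the gene most like TGFA (r = 0.98). Without H1975, in which these genes fell furthest, r over the other 15 groups was 0.94 for AREG and TGFA, 0.76 for AREG and EREG, 0.78 for EREG and TGFA and 0.91 for TGFA and FOXA2. AREG was followed further by LRRCC1 and BCL7B, and EREG by TREX2. HBEGF ran apart from these ligands, at -0.25 with AREG, -0.45 with EREG and -0.40 with TGFA, and its likest genes were PFDN1, MICAL3 and THSD4. The likest genes of BTC were MOB3B, KCNK1 and HPGD, of EPGN PTPRD, TRNP1 and ASAP2, of EGF APMAP, NFYB and COL12A1, and of NRG1 SMYD2, RELL2 and DZIP1L.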

How the data were processed

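RNA from 60 cultures (4 lines, 5 arms, 3 replicates) was sequenced from Illumina TruSeq mRNA libraries with paired-end reads. Per the labels the replicates are biological triplicates. Submitters' processing notes name HISAT2 2.1.0, Salmon 0.8.2 and genome build hg38 without their roles, and the annotation is not given in the sources used here. One table the authors deposited holds estimated counts for each symbol without scaling between libraries, 83.9% of them not whole numbers. They also deposited log2 TPM values with a pseudocount of 0.01, so that a gene without reads sits at -6.64. TPM totals ran from 0.806 to 0.891 M. Both tables held 19712 genes and were matched by column name to the labels.

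These were rounded and fitted in edgeR 4.0.16 under R 4.3.3 (TMM, filterByExpr, quasi-likelihood F-test, Benjamini-Hochberg adjustment over all genes tested). The 15 libraries of a line were fitted together with 1 mean per arm, the 12 DMSO libraries for pairs of lines, and all 60 libraries for the test of differences among lines, on 3 degrees of freedom. The study's methods name no model for these contrasts. Scripts were tested on simulated data. Leaving out libraries in the fit of 60 used the dispersion trend of the full fit. All 8 ligands were named. From each other list at most the 2 called genes with the largest change per comparison and line were named, and EGFR in each line, with the likest 3 genes per ligand. The members and lists were chosen with earlier results of these data known. Gene positions came from GENCODE release 29 (GRCh38), and promoters from RefSeq (GRCh38.p14). Figures were drawn with matplotlib 3.10.9 in Python 3.11.15.

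Alternatives were RLE factors, scaling by library size alone, testing without a filter, a minimum of 10 counts per library, DESeq2 1.42.0, limma 3.58.1 on log2 TPM with pseudocounts of 0.01 and 1, a replicate block, only the 6 libraries compared, all 60 libraries, a threshold of 0.01, and each library left out. A replicate block in the fit of the 6 libraries compared was added after seeing the data. Same-numbered libraries, paired by the number in their labels, deviated together (r of deviations from group means over 0.1 in all 3 pairs) in HCC827 (0.402 to 0.694) and H1975 (0.249 to 0.599) for short washout and DTPs, and in HCC2935 (0.126 to 0.358) for acute drug and DMSO.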

Additional observations from a re-analysis of the deposited data

Results flagged for a closer look

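Changes that differed between the cell lines are given here with no explanation. By the test of equal changes in the 4 lines under acute osimertinib, the adjusted p was 0.00408 for AREG, 2.51e-06 for BTC, 0.0291 for EGF, 0.00268 for EREG, 3.15e-12 for HBEGF and 3.13e-05 for TGFA. In DTPs against DMSO it was 1.38e-10 for AREG, 2.5e-14 for BTC, 0.00443 for EPGN, 2.03e-10 for EREG, 1.74e-11 for HBEGF, 2.29e-08 for NRG1 and 2.88e-14 for TGFA.

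Other ligands moved in opposite directions without overlap of replicates in at least 1 line each, and these differences were not tested. They are given as the highest minus the lowest log2 fold change of the lines without overlap. Overlap was judged in TPM, and edgeR did not call some of the changes. Not called in DTPs against acute drug were BTC in H1975, TGFA in PC9 (0.11, adjusted p = 0.328), and EREG in PC9 and HCC827. After short washout against DMSO they were AREG in PC9 (0.21, adjusted p = 0.646) and HCC2935, EREG in PC9 and EPGN in HCC827. After long washout they were BTC in H1975 against DTPs, and NRG1 in PC9 and HCC827 against DMSO. In DTPs against acute drug, AREG (4.31), BTC (2.29) and TGFA (3.26) were higher in PC9 and HCC2935 and lower in HCC827 and H1975, and EREG (2.85) was higher in PC9 and lower in HCC827 and H1975. After short washout against DMSO, AREG (6.37) was higher in PC9 and lower in the other 3 lines, EREG (4.86) and TGFA (5.39) were higher in PC9 and lower in HCC827 and H1975, and BTC (3.29) was higher in PC9 and lower in HCC827. HBEGF (4.88) was lower in PC9 and higher in the other 3 lines, and EPGN (4.03) was higher in HCC2935 and lower in HCC827 and H1975. Long washout against DTPs gave BTC (1.1), higher in H1975 and lower in PC9. Long washout against DMSO gave BTC (3.46), higher in PC9 and lower in HCC827, HBEGF (5.34), lower in PC9 and higher in the other 3 lines, and NRG1 (3.27), higher in PC9 and HCC2935 and lower in HCC827 and H1975. It also gave EPGN (7.13), higher in HCC2935 and lower in H1975, a fitted value that rests on 2 counts in the latter.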

How the results depend on the processing

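Of 147 called ligand changes and line differences, 122 kept their call in every alternative and leave-one-out fit that tested them, and 0 turned their direction. A ligand that a filter left out of a fit was not counted as a lost call there. Short washout against DTPs gave 1 call, and 2 with at least 10 counts in every library, 3 by DESeq2, 2 by limma with a pseudocount of 1, 2 with the replicate block, 3 with only the libraries compared, 0 with all 60 libraries and 5 with the replicate block in the libraries compared. Long washout against DTPs gave 3 calls, 1 with the replicate block in the libraries compared and 1 at an adjusted p under 0.01. With at least 10 counts in every library, calls between lines under DMSO went from 37 to 23 of 30 tested and line differences in DTPs from 7 to 3 of 4 tested, since fewer ligands passed. In other cases the cause was not tested. Leaving out 1 library gave 17 to 21 calls for acute drug, 18 to 22 for DTPs, 17 to 19 for DTPs against acute drug, 1 to 3 for short washout against DTPs (3 without PC9 long washout replicate 2 or 3, 2 without PC9 acute replicate 2 or 3), 1 to 4 for long washout against DTPs (1 without PC9 long washout replicate 1 or 2 or DTP replicate 2), 17 to 20 for either against DMSO, 35 to 40 between lines, and 5 to 7, 7 to 7 and 0 to 0 for line differences under acute drug, in DTPs and after short washout. The replicate block in the fit of 15 libraries gave 19 calls for acute drug, 20 for DTPs and 21 for DTPs against acute drug, and in most contrasts same-numbered libraries shared only a number. Where they were paired, the block changed no ligand call beyond those given for H1975. With EPGN at under 10 counts in many libraries, depth limits its comparisons.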

Other observations

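PFDN1, a subunit of the chaperone prefoldin, had the pattern most like HBEGF of the 13806 genes compared (r = 0.94 over 20 groups), and is also its nearest protein-coding neighbour on the side of lower coordinates, at chr5:140245039-140303121, with a gap of 29.7 kb and on the same strand. It was singled out after its values were seen. PFDN1 was expressed far more evenly than HBEGF. In PC9 it stood at 85.3, 81.9 and 80.5 TPM under DMSO and at 57.5, 49.9 and 55.0 TPM under acute osimertinib, groups without overlap. In HCC827 it stood at 79.5, 94.5 and 72.8 TPM under DMSO and at 146, 93.5 and 130 TPM in DTPs, groups that overlapped. No reason for the likeness was tested.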
